A study of Homo sapiens with 72 samples.

Results

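PRELID1, CKAP4, LRRFIP1, DDI2, FABP5, TMED10 and SEPTIN11 are 7 of the 44659 genes in the count table. They were chosen because their mRNAs were abundant in control cells and more than 4-fold lower, or close to it, after transfection with CTU2 siRNAs, with little spread between libraries. This choice used the contrast of siCTU2 with siGL2, so the size of that contrast is described below without a test, and the tests concern the changes over time and the other conditions. The libraries were QuantSeq libraries, which count the 3′ ends of polyadenylated RNAs, made from the cytoplasmic RNA of A375, a human melanoma cell line. A375 cells were reverse-transfected 42 h before treatment with a pool of 2 siRNAs against CTU2 (siCTU2) or with the control siRNA siGL2, directed against firefly luciferase. Other A375 cells, untransfected, were kept for 18 h without glutamine (mQ) or with glutamine (pQ). Every condition was then sampled at 0, 3 and 5 h of treatment with triptolide (25 µM), which blocks transcription (T arm), or with triptolide and the translation inhibitor cycloheximide at 100 µg/ml (TCHX arm). The 72 libraries thus form 24 groups of 3, with total counts from 5987692 to 15534331 per library. The labels do not say whether replicates were separate cultures, so the p-values measure the spread between these libraries, which may be technical. In these libraries the 2 siRNAs were used only as a pool, and an effect of losing CTU2 and another effect of the same siRNAs cannot be told apart in them. The study also transfected each siRNA singly for RT-qPCR. FABP5 was among the mRNAs measured that way, and the study describes the comparison with the pool as its test for off-target effects. Those measurements are not analysed here.

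CTU2 is a subunit of the cytosolic enzyme that adds sulfur to the wobble uridine of certain tRNAs. An siRNA is a short duplex, and one of its strands is loaded into an Argonaute protein. A fully complementary mRNA is cleaved by the loaded strand. An mRNA that pairs only with the seed, bases 2 to 8 of the loaded strand, can be lowered in the way microRNAs lower their targets. The 7 genes encode proteins with unrelated functions. PRELID1 carries phosphatidic acid across the mitochondrial intermembrane space, CKAP4 shapes endoplasmic reticulum sheets, LRRFIP1 binds nucleic acids, DDI2 is a ubiquitin-directed protease, FABP5 carries fatty acids, TMED10 is a cargo receptor between endoplasmic reticulum and Golgi, and SEPTIN11 is a filament-forming GTPase.

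The siRNA strands are shown because their letters can be compared with the mRNAs. The listed strand is the one given in the study's siRNA table, and the antisense strand is its reverse complement, computed here. Capitals mark the seed.
siCTU2#1 listed strand: cUAUCAAGcucaugaccaa
siCTU2#1 antisense strand: uUGGUCAUgagcuugauag
siCTU2#2 listed strand: gCGUGAACaugaaggacuu
siCTU2#2 antisense strand: aAGUCCUUcauguucacgc
siGL2 listed strand: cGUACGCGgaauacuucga
siGL2 antisense strand: uCGAAGUAuuccgcguacg

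An mRNA complementary to the seed of the siCTU2#1 antisense strand holds ATGACCA, and one complementary to the seed of the siCTU2#2 antisense strand holds AAGGACT. One transcript per gene was taken from the GENCODE 44 annotation of GRCh38, which covered 10776 of the 12292 genes tested at 0 h, and the sense strand of the mRNA was searched. In 3′ untranslated regions, ATGACCA was present in CKAP4, DDI2, FABP5, TMED10 and SEPTIN11, 5 of the 7 genes, and in 10.74% of all genes searched. AAGGACT was present in the 3′ untranslated region of DDI2 alone among the 7 and in 13.72% of all genes. The seeds of the listed strands of siCTU2#1 (CTTGATA) and siCTU2#2 (GTTCACG) matched 0 of the 7 genes, and 11.28% and 3.823% of all genes. Those of the siGL2 listed strand (CGCGTAC) and antisense strand (TACTTCG) also matched 0 of the 7, and 0.2227% and 1.513% of all genes. The 3′ untranslated regions searched differed widely in length, from 208 bases in FABP5 and 379 in PRELID1 to 9254 in DDI2, against a median of 1429 over all genes. A match is a description and not a site of action.

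The matched stretches are shown for the 2 CTU2 target sites, the SEPTIN11 coding match and the genes with a heptamer in the 3′ untranslated region other than FABP5, whose match was complementary at 13 of 19 bases with a longest run of 8. Each is the mRNA sense strand, and capitals mark the bases complementary to the siRNA antisense strand.
CTU2, siCTU2#1, coding sequence, exon 8 of 15, chr16:88713389-88713407: CTATCAAGCTCATGACCAA
CTU2, siCTU2#2, coding sequence, exon 13 of 15, chr16:88714907-88714925: GCGTGAACATGAAGGACTT
SEPTIN11, siCTU2#2, coding sequence, exon 7 of 10, chr4:77020553-77020571: GCGTGAACATGgAGGACTT
SEPTIN11, siCTU2#1, 3′ untranslated region, chr4:77037520-77037538: aggatgcctTtATGACCAc
CKAP4, siCTU2#1, 3′ untranslated region, chr12:106238973-106238991, minus strand: tccaatttCTCATGACCAA
DDI2, siCTU2#1, 3′ untranslated region, chr1:15660411-15660429: aaAagcttCaCATGACCAA
DDI2, siCTU2#2, 3′ untranslated region, chr1:15662970-15662988: tttTtttatatAAGGACTa
TMED10, siCTU2#1, 3′ untranslated region, chr14:75132959-75132977, minus strand: tgtggAtataaATGACCAt

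The SEPTIN11 coding sequence was complementary to siCTU2#2 at 18 of 19 bases. It differed from the listed strand by A12G, counted from 1 at the 5′ end of the listed strand. CTU2 and SEPTIN11 were the only 2 of the 10776 genes with at most 1 mismatch to this antisense strand. CKAP4 held an unbroken run of 11 bases complementary to the siCTU2#1 antisense strand in its 3′ untranslated region. In the transcript searched, LRRFIP1 had neither heptamer in its 3′ untranslated region. It had AAGGACT in its coding sequence across an exon junction, within a run of 10 complementary bases. Another annotated coding transcript of LRRFIP1 held ATGACCA in its 3′ untranslated region. With coding sequence included, 6 of the 7 genes and 44.15% of all genes held at least 1 of the 2 heptamers. In the same regions, 1 of the 7 (TMED10) and 6.895% of all genes matched the seed of either siGL2 strand. PRELID1 had neither heptamer in its coding sequence or 3′ untranslated region, and its longest run complementary to either antisense strand was 7 bases. The absence of a match in PRELID1 says only that these letters are not in the transcript searched.

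CTU2 itself was checked first. At 0 h of the T arm it had 21.1, 22.0 and 24.2 CPM (counts divided by the total of the library, on a scale common to all libraries) in the 3 siGL2 libraries and 2.95, 1.01 and 1.32 CPM in the 3 siCTU2 libraries, which hold 28, 11 and 17 counts. The group means of CTU2 lay between 21.5 and 35.7 CPM in siGL2, pQ and mQ cells over all arms and times. In siCTU2 cells, CTU2 stayed at or below 2.95 CPM in 17 libraries and was 10.4 CPM (117 counts) in the library labelled siCTU2 TCHX 5 h replicate 3. This library therefore goes against its label, and the results that rest on it are given with and without it. It detected more genes than most, as did mQ T 5 h replicate 3 and pQ TCHX 0 h replicate 3: 19896 to 20364 genes in these 3 libraries, against 15507 to 17495 in the other 69. PTPRC, which encodes the leukocyte antigen CD45, was at 31.1 to 32.6 CPM in the same 3 libraries and at 0 to 0.759 CPM in the other 69. With PTPRC included, 6 markers of keratinocytes, fibroblasts, leukocytes and endothelium summed to 35.3 to 36.2 CPM against 0 to 3.20 CPM. PTPRC made up most of that sum. Of the others, COL1A1 reached at most 2.57 CPM in any library, DCN 2.00, KRT14 1.22, PECAM1 0.789 and KRT5 0.0994. The 7 melanocytic markers summed to 580 to 730 CPM in the 3 libraries and 384 to 1128 CPM in the other 69. Their part in the results was not tested beyond leaving libraries out. At 0 h of the T arm the melanocytic markers summed to 778 to 976 CPM in siCTU2 and 978 to 1110 CPM in siGL2. MITF, SOX10 and S100B made up most of the sum, while MLANA and TYR were near 0, with at most 1.47 CPM in any library. MITF, the melanocyte lineage transcription factor, was 124 ± 21.6 CPM in siCTU2 and 346 ± 41.0 CPM in siGL2 (SD, n = 3) at 0 h (log2 fold change −1.48, adjusted p = 7.24e-09) and DCT was higher (0.77, adjusted p = 0.0486), while SOX10 had 0.20 (adjusted p = 0.0649) and S100B −0.01 (adjusted p = 0.913).

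At 0 h, all 7 mRNAs were far lower in siCTU2 than in siGL2 cells, and in none of them did the libraries of the groups overlap. Such a gap, with every siCTU2 library below every siGL2 library, was found for 23.3% of the 12292 genes tested. A log2 fold change of −2 or lower, that is a 4-fold fall, was found for 0.797% of them (98 genes), and for 182 genes without siCTU2 replicate 3. At an adjusted p under 0.05, 18.2% of genes were lower and 17.8% were higher in siCTU2. Since the 7 genes were chosen on this contrast, nothing is read from their count. Fewer cells with an mRNA and less of it per cell cannot be told apart in these bulk libraries.

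PRELID1, on chromosome 5 (177303799 to 177306949), fell furthest. It had 496, 469 and 465 CPM in the siGL2 libraries and 46.4, 37.8 and 48.4 CPM in the siCTU2 libraries, a log2 fold change of −3.43 ± 0.09 (SE). SEPTIN11, on chromosome 4 (76949751 to 77040384), was 194, 193 and 201 CPM in siGL2 and 15.2, 17.0 and 22.4 CPM in siCTU2, a log2 fold change of −3.42 ± 0.12. Both were at 9.27% of their siGL2 mean, close to the 7.85% of CTU2 itself. CKAP4, on chromosome 12 (106237881 to 106304279), was 304.2, 312 and 331 CPM in siGL2 and 58.4, 55.3 and 62.8 CPM in siCTU2, a log2 fold change of −2.42 ± 0.08. TMED10, on chromosome 14 (75131469 to 75176612), was 336, 314 and 339 CPM in siGL2 and 58.2, 44.4 and 57.2 CPM in siCTU2, a log2 fold change of −2.63 ± 0.10. The 2 endomembrane genes thus kept 18.6% and 16.1% of the siGL2 level.

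DDI2, on chromosome 1 (15617458 to 15669044), was 161, 152 and 150 CPM in siGL2 and 22.9, 28.03 and 27.3 CPM in siCTU2, a log2 fold change of −2.56 ± 0.10. FABP5, on chromosome 8 (81280536 to 81284777), was 136, 135 and 132 CPM in siGL2 and 19.4, 15.2 and 16.9 CPM in siCTU2, a log2 fold change of −2.97 ± 0.10. LRRFIP1, on chromosome 2 (237627587 to 237813682), kept the most, with 469, 472 and 459 CPM in siGL2 and 108, 118 and 115 CPM in siCTU2, a log2 fold change of −2.04 ± 0.07. At the 0 h time point of the TCHX arm, from 6 other libraries, the siCTU2 means were 10.3% (PRELID1), 12.8% (SEPTIN11), 12.1% (FABP5), 16.0% (TMED10), 18.2% (DDI2), 14.2% (CKAP4) and 26.2% (LRRFIP1) of siGL2. There LRRFIP1 had a log2 fold change of −1.92 and no longer reached 4-fold. FABP5 and TMED10 have processed copies named in the table, FABP5P3 and TMED10P1, with 0.268% and 0.336% of the counts of their parent genes, so those genes' reads may be divided slightly.

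**Figure D1:**
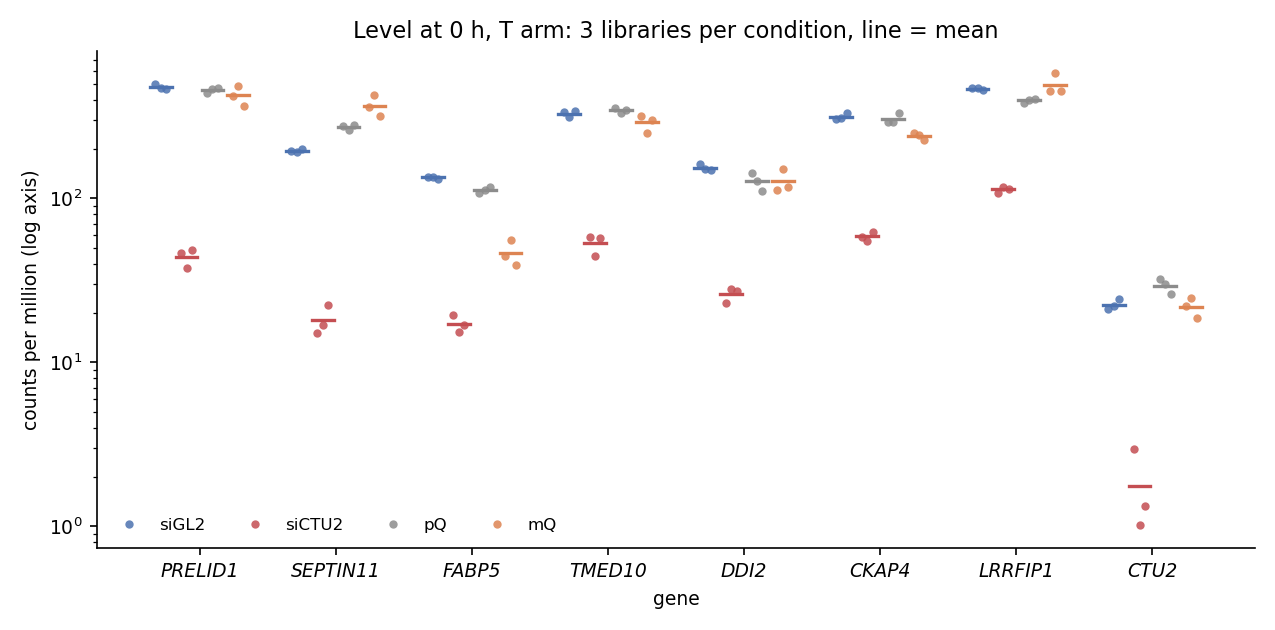
Level (CPM, log axis) of the 7 mRNAs and CTU2 in each 0 h library of the T arm, with points for libraries and bars for group means. The siCTU2 libraries lie below the siGL2, pQ and mQ libraries for every gene shown, and FABP5 is also lower in mQ (39.0 to 56.1 CPM) than in pQ (109 to 117 CPM).

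Among the 3821 genes with at least 50 CPM in siGL2, 28 were lowered at least 4-fold, and the 7 described here are among them. The largest falls of the other 21 were those of IDH1 (log2 fold change −3.79), G3BP2 (−3.77), CCT3 (−3.60), HMGA2 (−3.51), AIFM2 (−3.38), TMEM158 (−3.20), ATP6V1A (−2.62), KIF3B (−2.62), PMP2 (−2.52) and ELK3 (−2.45). LRRFIP1 (−2.04), LASP1 (−2.03) and DSTYK (−2.03) lay just inside the 4-fold limit, and PDIA3, SRRD and SEPTIN7 (−1.97 each) just outside it. Of the 20 other genes with a transcript in the annotation, ATGACCA was in the 3′ untranslated region of 8, AAGGACT in that of 6, and at least 1 of them in that of 12. Of all 84 searched genes lowered at least 4-fold, 41.67% held at least 1 of the 2 heptamers in the 3′ untranslated region, against 21.62% of all genes searched. The share lowered at least 4-fold was 1.901% with ATGACCA and 0.6446% without, and 1.42% with AAGGACT and 0.6776% without. For the listed strands it was 0.4938% with CTTGATA and 0.8158% without, and 1.942% with GTTCACG and 0.7333% without. These shares were not adjusted for the length of the untranslated region.

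**Figure D2:**
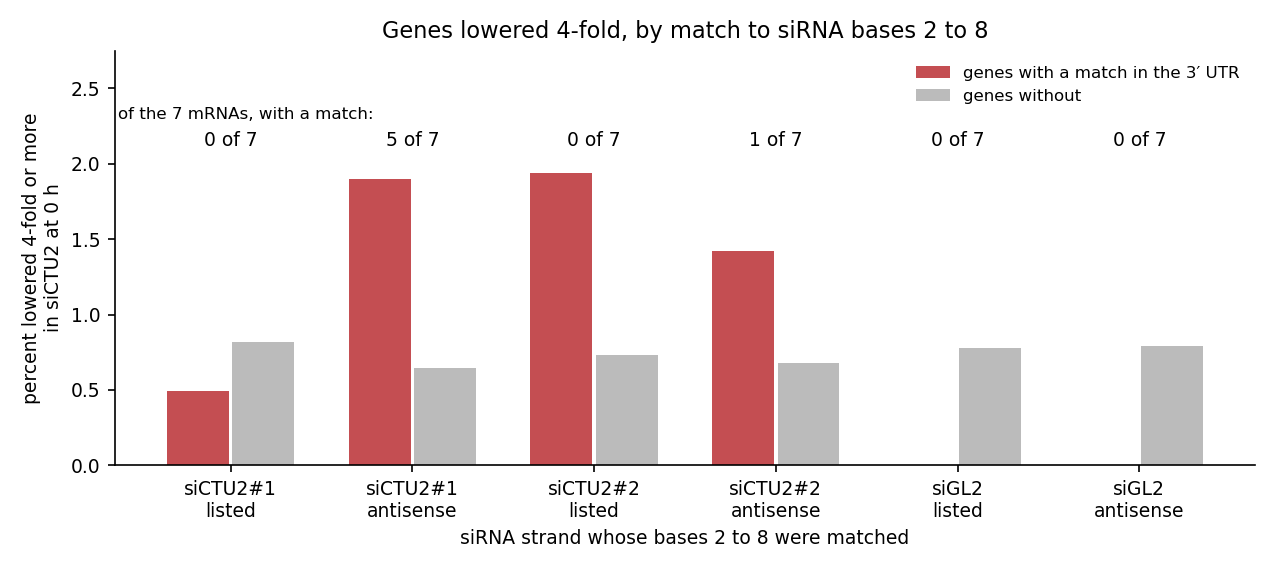
Share of genes lowered at least 4-fold in siCTU2 at 0 h (percent), for genes with and without a 3′ untranslated match to the seed of each siRNA strand. Above the bars is the number of the 7 genes that hold the match. For ATGACCA, the match to the siCTU2#1 antisense strand, the share was 1.901% with the match and 0.6446% without.

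The listed relatives and partners of the 7 genes mostly moved less. Of 50 genes listed in 8 groups, with members of the RNA interference machinery as one group, 41 were tested, 14 were higher and 8 lower in siCTU2, with a median log2 fold change of 0.065 against 0.0048 over all genes. A log2 fold change of −1 or lower was found for 3 of the 41. Without siCTU2 replicate 1, siGL2 replicate 1 or siGL2 replicate 3, 8 genes instead of 14 were called higher. In the p24 family of TMED10, 5 of 8 genes rose, TMED2, TMED3, TMED5, TMED7 and TMED9, by log2 fold changes of 0.23 to 0.31, and 0 fell. Among genes that shape the endoplasmic reticulum, KTN1 (0.17), RTN4 (0.32), REEP5 (0.45) and ATL3 (0.71) rose and LNPK (−0.81) fell. TRIAP1, the partner of PRELID1, rose by 0.31. Its paralog PRELID3B fell from 75.1 to 20.3 CPM (−1.89). Of 5 septins tested, SEPTIN7 (−1.97), SEPTIN9 (−0.73) and SEPTIN8 (−0.57) fell, while SEPTIN2 (0.34) and SEPTIN10 (0.52) rose. The listed relatives of DDI2 (5 tested) and of FABP5 (FABP7 and CRABP2) gave 0 calls in either direction with edgeR at an adjusted p under 0.05, and LRRFIP2 had a log2 fold change of −0.21 (adjusted p = 0.113). The list of fatty acid binding proteins was not the whole family and left out PMP2, which was among the genes lowered 4-fold (−2.52). Of the interference machinery, AGO1, an Argonaute, fell (−1.89), as did TNRC6C (−0.58) and DICER1 (−0.26), while AGO2 (0.39) and PRKRA (0.40) rose. Of the 41 relatives and machinery genes, 11 held at least 1 of the 2 heptamers in the 3′ untranslated region.

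The next question was whether the mRNAs were also lost faster in siCTU2 cells once transcription was blocked. After triptolide, counts were scaled to 197 stable genes, and each level is a percent of the mean of the same condition at 0 h. All 7 mRNAs kept a smaller percent in siCTU2 than in siGL2 cells, with no overlap of libraries at 3 h or at 5 h. Of all genes tested, 12.2% showed such a gap at 3 h and 8.62% at 5 h. The change over time (mean of 3 h and 5 h against 0 h) was called lower for 7 of the 7 genes in siCTU2, where 59.3% of all genes were lower. In siGL2 it was called lower for 3 of the 7 (CKAP4, LRRFIP1 and DDI2), where 46.5% of all genes were lower.

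DDI2 was lost most in both conditions. At 3 h it kept 18.6%, 20.6% and 15.4% in the siCTU2 libraries and 61.9%, 54.6% and 57.2% in the siGL2 libraries. At 5 h it kept 8.93%, 13.1% and 15.2% in siCTU2 and 48.8%, 38.9% and 54.8% in siGL2. The difference in log2 change between the conditions was −1.80 ± 0.22 (SE; edgeR quasi-likelihood test, adjusted p = 0.000442). PRELID1 stayed near its 0 h level in siGL2, with 85.7%, 88.4% and 83.0% at 3 h and 90.4%, 102% and 83.3% at 5 h. In siCTU2 it fell to 49.8%, 47.6% and 39.5% at 3 h and to 11.7%, 19.0% and 18.6% at 5 h, a difference of −1.70 ± 0.21 (adjusted p = 0.000442). So at 5 h the siCTU2 level of PRELID1 was 1.92% of the siGL2 level, against 9.27% at 0 h.

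CKAP4 kept 29.5%, 40.5% and 35.97% at 3 h and 18.3%, 19.6% and 18.9% at 5 h in siCTU2. In siGL2 it kept 79.7%, 74.9% and 76.2% at 3 h and 83.1%, 83.0% and 69.4% at 5 h, a difference of −1.59 ± 0.16 (adjusted p = 0.000125). Its 5 h libraries were the tightest of the 7 genes in siCTU2, at 18.9% ± 0.64 (SD, n = 3). SEPTIN11 kept 36.9%, 33.0% and 48.7% at 3 h and 23.9%, 14.6% and 30.4% at 5 h in siCTU2, from 49 to 175 counts. In siGL2 it kept 75.2%, 77.8% and 83.1% at 3 h and 79.5%, 68.3% and 103% at 5 h, a difference of −1.43 ± 0.27 (adjusted p = 0.0251). LRRFIP1, the least lowered at 0 h, kept 43.6%, 41.8% and 37.1% at 3 h and 30.1%, 37.8% and 24.3% at 5 h in siCTU2. It kept 72.8%, 74.7% and 71.9%, then 67.3%, 60.7% and 78.8%, in siGL2, a difference of −1.002 ± 0.18 (adjusted p = 0.0166).

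FABP5 and TMED10 did not pass the threshold. FABP5 kept 46.4%, 38.5% and 49.6% at 3 h and 31.8%, 29.0% and 11.9% at 5 h in siCTU2, the last from 30 counts. In siGL2 it kept 97.9%, 73.4% and 65.8% at 3 h and 80.7%, 94.3% and 95.2% at 5 h, a difference of −1.35 ± 0.30 (adjusted p = 0.0651). TMED10 differed least, with 55.1%, 53.4% and 60.4% at 3 h and 44.6%, 51.3% and 21.4% at 5 h in siCTU2. It kept 83.5%, 76.7% and 77.9% at 3 h and 79.5%, 80.7% and 57.1% at 5 h in siGL2, a difference of −0.69 ± 0.28 (adjusted p = 0.729).

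**Figure D3:**
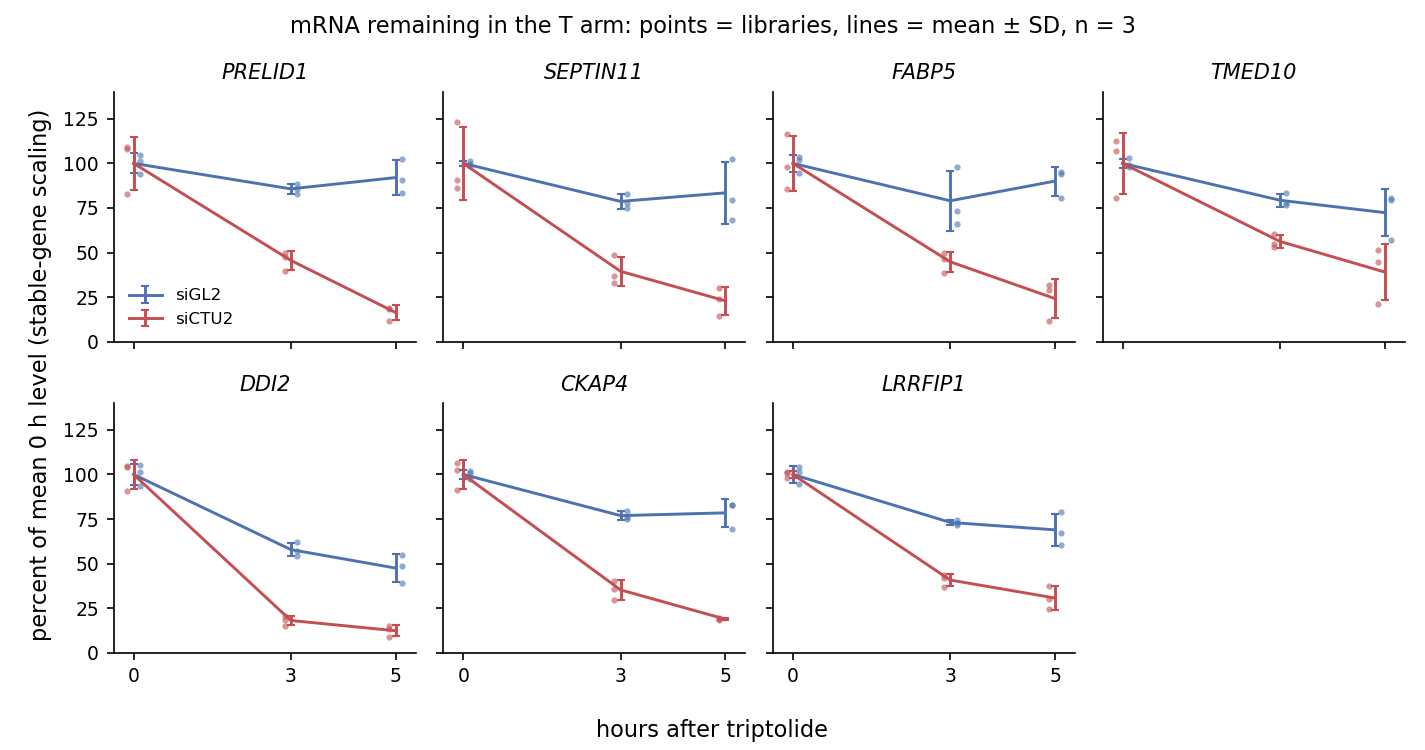
Percent of the 0 h level (scaled to stable genes) at 0, 3 and 5 h of triptolide in the T arm, with points for libraries and lines through the means of siCTU2 and siGL2. At 5 h the siCTU2 means lie between 12.4% (DDI2) and 39.1% (TMED10) and the siGL2 means between 47.5% (DDI2) and 92.1% (PRELID1).

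The difference was thus called for 5 of the 7 genes, where 0.413% of all 13324 genes tested were called lower (55 genes). The median difference of the 7 was −1.43 log2, against −0.09 over all genes and −0.11 over abundant genes. Of the 21 other abundant mRNAs lowered 4-fold, 10 were called, 19 were below 0 and the median was −1.27. PMP2 (0.09) and RNF157 (0.17) had differences above 0 without being called. At 3 h alone 2 of the 7 were called, CKAP4 (−1.12) and DDI2 (−1.68), where 0.0525% of all genes were called lower. At 5 h alone 6 were called, PRELID1 (−2.48), CKAP4 (−2.05), DDI2 (−1.93), FABP5 (−1.89), SEPTIN11 (−1.87) and LRRFIP1 (−1.16), where 0.45% of all genes were called lower. TMED10 had −0.89 at 5 h.

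The T arm test shares its 0 h libraries with the contrast used to choose the genes. With the 0 h libraries of the TCHX arm in their place, 5 of the 7 were called again, from −0.99 for LRRFIP1 to −1.80 for DDI2, where 0.303% of all genes were called lower. With the replicate number as a block, 6 of the 7 and 81 of all genes were called, FABP5 with an adjusted p of 0.0371. The number of calls changed with single replicates, while the median difference of the 7 was −1.45, −1.51 and −1.36 log2 without replicates 1, 2 and 3. Without replicate 1 of both conditions 0 of the 7 and 0 of all genes passed with edgeR, although 386 genes had an unadjusted p under 0.05, without replicate 2 it was 1 of the 7 and 5 of all genes, and without replicate 3 it was 6 of the 7 and 136 of all genes. All 7 differences stayed below 0 in each of the 13 alternatives computed. With TMM scaling in place of the stable genes, the siGL2 changes were above 0 for 6 of the 7, such as 0.49 for PRELID1, and below 0 for DDI2 (−0.24), while the differences ranged from −0.64 for TMED10 to −1.75 for DDI2. With that scaling 7 of the 7 were called lower in siCTU2, where 17.1% of all genes were, and 0 of the 7 in siGL2, where 14.4% were and PRELID1 was called higher (adjusted p = 0.0461). TMM scaling moved the median change of all genes in siGL2 from −0.59 to 0.06.

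**Figure D4:**
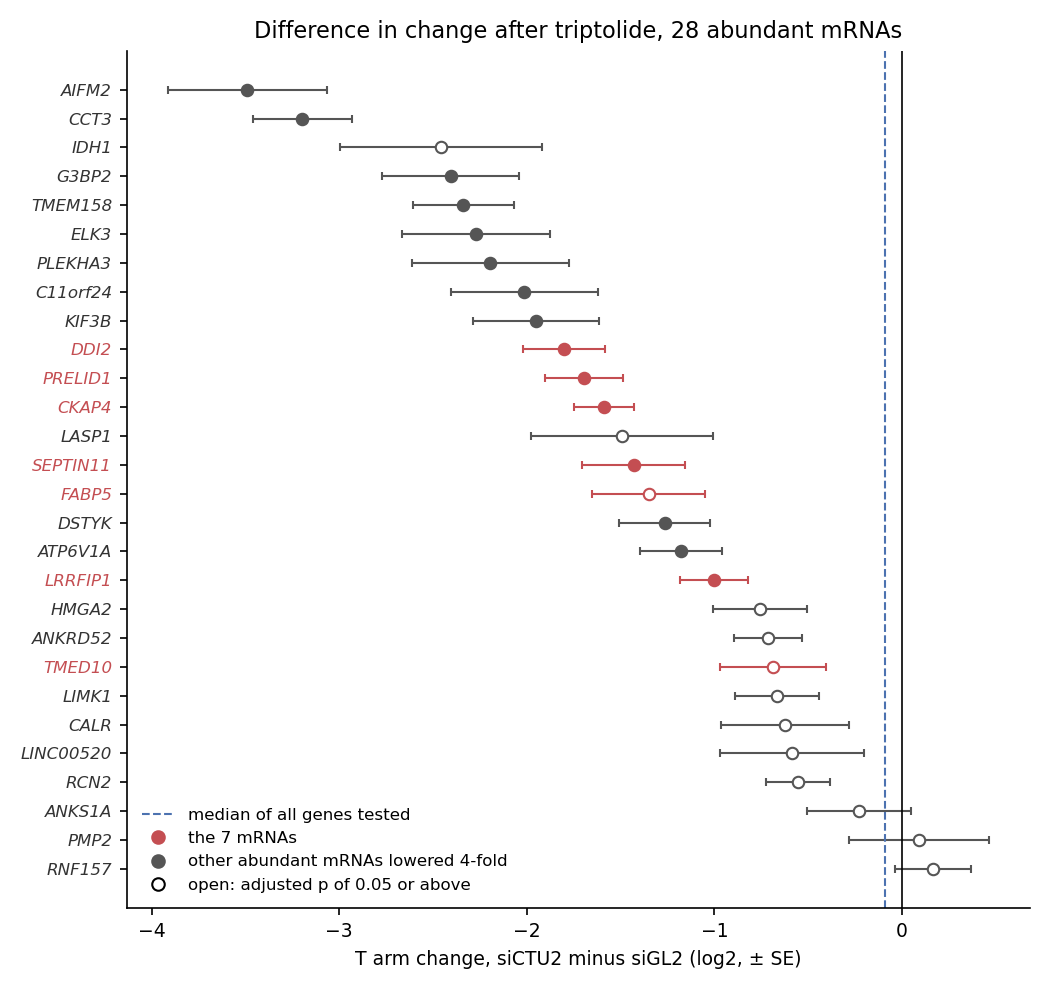
Difference in log2 change after triptolide, siCTU2 minus siGL2 (± SE), for the 28 abundant mRNAs lowered at least 4-fold, with filled points for an adjusted p under 0.05. The 7 described here run from −1.80 (DDI2) to −0.69 (TMED10), left of the dashed median of all genes at −0.09.

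In the TCHX arm the same comparison rested on 1 library. In the library labelled siCTU2 TCHX 5 h replicate 3, PRELID1 was at 253 CPM, against 24.5 and 37.3 CPM in the other 2 of its group, and SEPTIN11 at 161 CPM, against 5.17 and 7.58 CPM. Over the 7 genes its levels were between 34.7% (DDI2) and 76.9% (SEPTIN11) of the siGL2 mean. With it, the difference in change was called for 0 of the 7 genes with edgeR and with DESeq2, which gave no adjusted p for 4 of them, where 0.00732% of all genes were called lower and 644 of 13656 genes had an unadjusted edgeR p under 0.05. The differences then ran from −1.04 ± 0.70 for DDI2 to 0.42 ± 0.50 for FABP5.

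Without this library, the change over time was called lower for 7 of the 7 genes in siCTU2, where 27.9% of all genes were lower, and for 7 of the 7 in siGL2, where 55.1% were lower. The difference between the conditions was called for DDI2, −2.06 ± 0.24 (adjusted p = 0.000341), and SEPTIN11, −1.70 ± 0.22 (adjusted p = 0.000848), where 0.193% of all genes were called lower. At 3 h of the TCHX arm DDI2 kept 13.04%, 26.2% and 18.8% in siCTU2 and 77.8%, 72.4% and 65.2% in siGL2. SEPTIN11 kept 25.7%, 26.8% and 26.8% in siCTU2 and 84.5%, 65.6% and 76.5% in siGL2. The groups did not overlap for either gene, and the share of all genes with such a gap was not counted in this arm. The other 5 genes had differences of −0.66 (CKAP4, adjusted p = 0.128), −0.60 (PRELID1, 0.419), −0.57 (LRRFIP1, 0.317), −0.45 (TMED10, 0.956) and −0.18 (FABP5, 0.956). At 3 h FABP5 kept 78.0%, 92.0% and 70.8% in siCTU2 and 75.2%, 76.2% and 61.6% in siGL2, and here the groups overlapped.

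**Figure D5:**
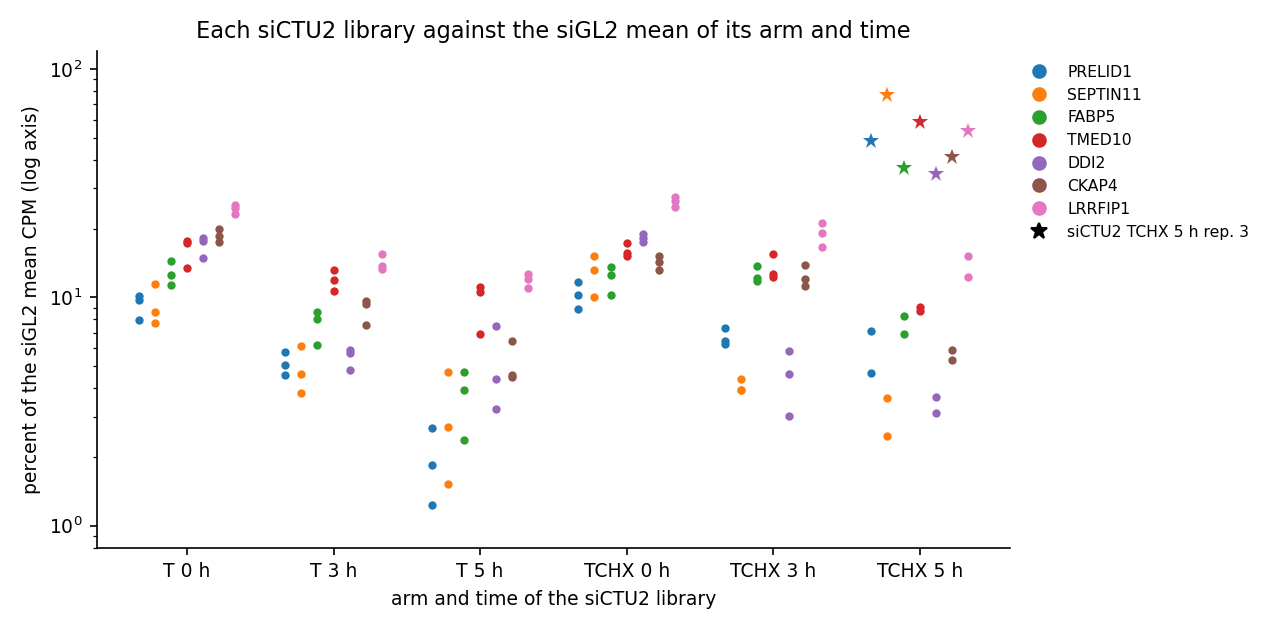
Level in siCTU2 as percent of the siGL2 mean (log axis) at 0, 3 and 5 h in both arms, per library. In the T arm every 5 h library of the 7 mRNAs lies below every 0 h library of the same gene. In the TCHX arm at 5 h, replicate 3 lies between 34.7% and 76.9%, far above replicates 1 and 2.

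The effect of cycloheximide itself was the level in the TCHX arm against the T arm, as the mean of 3 h and 5 h. In siCTU2, 6 of the 7 mRNAs were higher with cycloheximide, from 1.03 log2 for LRRFIP1 to 1.81 for PRELID1, where 21.3% of all genes were called higher. TMED10 had 0.76 (adjusted p = 0.0723). In siGL2, 0 of the 7 were called higher with edgeR, from −0.22 for FABP5 to 0.48 for DDI2, where 11.9% of all genes, 1700 of them, were called higher and 3026 of 14259 genes had an unadjusted p under 0.05. The effect was larger in siCTU2 than in siGL2 for PRELID1, by 2.02 ± 0.43 (adjusted p = 0.0273), and for FABP5, by 1.58 ± 0.36 (adjusted p = 0.0436), where 0.379% of all genes differed in either direction. Neither was called with TMM scaling (edgeR adjusted p = 0.0532 and 0.056) or with genes stable at both times (0.0511 and 0.103), of which there were 8. At 3 h alone, and with the difference at 0 h subtracted, 0 of the 7 and 0 of all genes were called.

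Without the library that goes against its label, the siCTU2 effects were smaller. PRELID1 (0.92), FABP5 (0.76) and LRRFIP1 (0.53) were still called higher, where 16.7% of all genes were, while CKAP4 had 0.24, DDI2 0.22, TMED10 −0.01 and SEPTIN11 −0.06. In siGL2, DDI2 (0.48, adjusted p = 0.00738) was then called higher, where 12.3% of all genes were. The larger effect in siCTU2 was still called for PRELID1, by 1.12 ± 0.17 (adjusted p = 0.00059), and for FABP5, by 0.97 ± 0.22 (adjusted p = 0.0495), where 0.245% of all genes differed. That of SEPTIN11 dropped from 1.68 to 0.08 and that of DDI2 from 0.76 to −0.26. Without replicate 1 or without replicate 2 of all groups, 0 of the 7 were called, where 1 and 4 of all genes were called. The differences were no smaller, 2.26 and 2.28 for PRELID1 (edgeR adjusted p = 0.354 and 0.236) and 1.87 and 1.79 for FABP5 (0.431 and 0.241).

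The 18 mQ and 18 pQ libraries, which received no siRNA, give the 7 mRNAs without the contrast that chose them. At 0 h, FABP5 was 44.4, 56.1 and 39.0 CPM in mQ and 109, 113 and 117 CPM in pQ. Its log2 fold change was −1.22 ± 0.14 (edgeR, adjusted p = 0.00015). FABP5 was called lower in all 11 alternatives computed. CKAP4 was 252, 243 and 226 CPM in mQ and 291, 295 and 331 CPM in pQ (−0.29 ± 0.10, adjusted p = 0.0493). Thus 2 of the 7 were called lower, where 12.4% of all genes were. SEPTIN11 was 361, 425 and 318 CPM in mQ and 278, 261 and 279 CPM in pQ (0.49 ± 0.12, adjusted p = 0.0105). LRRFIP1 was 453, 580 and 450 CPM in mQ and 385, 399 and 405 CPM in pQ (0.37 ± 0.11, adjusted p = 0.0331). These 2 were called higher, where 12.5% of all genes were. PRELID1 (−0.06), DDI2 (0.06) and TMED10 (−0.19) had adjusted p of 0.737, 0.791 and 0.207. At 0 h of the TCHX arm FABP5 alone was called, with −1.01 (adjusted p = 0.00567). Each of the other 3 calls was lost in some of the fits with 1 library left out. Leaving out a pQ replicate also cut the calls over all genes. They went from 1530 lower and 1541 higher to between 708 and 1110 lower and between 768 and 1150 higher. SEPTIN11 lost its call without pQ replicate 2 (adjusted p = 0.0633), and LRRFIP1 without pQ replicate 1 (0.132), pQ replicate 2 (0.11) or pQ replicate 3 (0.0769). CKAP4 kept its call only when mQ replicate 2 was the one left out, and had adjusted p of 0.0869 without mQ replicate 1, 0.0914 without mQ replicate 3, and 0.1, 0.11 and 0.182 without pQ replicates 1, 2 and 3.

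After triptolide, mQ and pQ counts were scaled to 81 stable genes of their own, so the percents are set beside those of siGL2 without a test. At 5 h of the T arm PRELID1 kept 95.6%, 91.3% and 86.4% in the pQ libraries and 72.5%, 84.3% and 65.1% in the mQ libraries, of which replicate 3 is one of the 3 with PTPRC. FABP5 kept 106%, 72.1% and 81.4% in pQ and 90.5%, 78.1% and 108% in mQ. All of these values lie above the highest siCTU2 value of the same gene at 5 h. DDI2 was again low, with 40.1%, 46.3% and 50.1% in pQ and 25.4%, 27.98% and 45.5% in mQ, the last in replicate 3. Replicate 3 of mQ lay within the 38.9% to 54.8% of siGL2, and the other 2 mQ libraries lay between that range and the 8.93% to 15.2% of siCTU2. LRRFIP1 kept 83.4%, 72.3% and 85.8% in pQ and 57.5%, 54.7% and 60.6% in mQ, above the 24.3% to 37.8% of siCTU2. The change over time in mQ against pQ was not tested.

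Over the 24 group means of log2(CPM + 1), the 5 other genes with at least 50 CPM whose pattern was most like the mean pattern of the 7 were G3BP2 (Pearson r = 0.996), STAU1 (0.994), PRELID3B (0.991), ATP6V1A (0.988) and ARIH2 (0.987). The points share the contrast of the 6 siCTU2 groups with the other 18, so the r values are given as a description. G3BP2 and ATP6V1A are among the 28 abundant mRNAs lowered 4-fold, while STAU1 (−1.24), PRELID3B (−1.89) and ARIH2 (−1.17) were lowered less. Their T arm differences were −0.59 (STAU1, adjusted p = 0.22), −0.59 (PRELID3B, 0.791) and −0.67 (ARIH2, 0.216), and did not pass the threshold.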

How the data were processed

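The deposited table holds raw read counts per gene for 72 QuantSeq libraries. Per the submitters' processing notes the authors used fastp 0.20.1, HISAT2 2.2.1, HTSeq 0.13.5 and GRCh38.p13. The strand setting and the treatment of multiply mapped reads are not given in the sources used here. No molecular identifiers were stated, so PCR duplicates may remain in the counts, and spike-ins were not used here.

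Counts were analysed in R 4.3.3 with edgeR 4.0.16 (filterByExpr, quasi-likelihood F-test, Benjamini-Hochberg adjustment over all genes tested, threshold 0.05), with TMM scaling at 0 h. Later times were scaled by the median of ratios over 197 stable genes, chosen after the study's methods: CPM above 0.2 at 0 h and a later CPM at least 1.1 times that of 0 h in both arms of every replicate. DESeq2 1.42.0 was an alternative. Another was scaling to genes stable at both 3 h and 5 h, of which there were only 8. The siRNA matches were found with GENCODE 44 transcripts and Python 3.11.15. Figures used matplotlib 3.10.9.

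The 7 genes, the family lists and the tests were chosen with earlier results of these data known. By rule the text names the 7 genes, CTU2, family genes past the threshold or closest relatives, the 5 genes most alike, up to 10 other abundant genes lowered 4-fold, and those next to the limit. RNF157 and PTPRC were named after their values were seen. The numbered replicates of siCTU2 and siGL2 deviated together at 0 h of the T arm (correlations 0.135, 0.213 and 0.355 over genes above 20 CPM) and over the whole T arm (0.617, 0.641 and 0.849). They also did at 0 h (0.179, 0.355 and 0.309) and 3 h (0.154, 0.300 and 0.472) of the TCHX arm. At 5 h of that arm they did not (0.439, −0.413 and 0.0509), nor over the whole TCHX arm (0.389, −0.208 and 0.0991). Those of mQ and pQ did not at 0 h of the T arm (0.155, −0.201 and −0.171) or TCHX arm (0.103, −0.00498 and 0.0798). They did at 3 h (0.374, 0.243 and 0.480) and 5 h (0.392, 0.113 and 0.254) of the T arm and 5 h of the TCHX arm (0.866, 0.718 and 0.908).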

Additional observations from a re-analysis of the deposited data

Results flagged for a closer look

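The change after triptolide differed between siCTU2 and siGL2, by an edgeR quasi-likelihood test of the difference, for PRELID1 (−1.70 log2), CKAP4 (−1.59), LRRFIP1 (−1.002), DDI2 (−1.80) and SEPTIN11 (−1.43). For each, all 3 siCTU2 libraries lay below all 3 siGL2 libraries at 3 h and at 5 h. Of all genes tested, 12.2% showed such a gap at 3 h and 8.62% at 5 h. Among the other abundant mRNAs named above it also differed for G3BP2 (−2.41, adjusted p = 0.00405), CCT3 (−3.20, 1.38e-05), AIFM2 (−3.49, 0.000442), TMEM158 (−2.34, 0.000338), ATP6V1A (−1.18, 0.0243), KIF3B (−1.95, 0.0136) and ELK3 (−2.27, 0.0137). The effect of cycloheximide differed between siCTU2 and siGL2 for PRELID1 (2.02) and FABP5 (1.58), and was 1.12 and 0.97 without the library labelled siCTU2 TCHX 5 h replicate 3. It was not called for either gene with TMM scaling, genes stable at both times, 3 h alone or the 0 h difference subtracted. At 3 h alone and with the 0 h difference subtracted, 0 of all genes were called.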

How the results depend on the processing

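The 0 h log2 fold change moved by less than its spread in 67 of 70 values over the 7 genes and the alternatives. The number of genes lowered 4-fold at 0 h was 98, 1898 with no filter on low counts and 102 to 182 with 1 library left out. For the T arm difference, 5 of the 7 genes were called, 2 at 3 h against 0 h, 0 at 5 h against 3 h and 0 to 6 with 1 replicate left out. Over all genes 55 were called lower, and 22 with genes stable at both times, 83 with no filter, 128 with DESeq2, 7 at 3 h, 0 at 5 h against 3 h and 0 to 136 with 1 replicate left out. For the TCHX arm, 0 of the 7 were called, 0 to 3 with 1 replicate left out, and 2 without the library that goes against its label. An alternative chosen after seeing the data, 3 h without replicate 3, gave 2. Over all genes 1 was called lower, and 0 with genes stable at both times, 8 with no filter, 3 with DESeq2, 0 at 3 h, 0 at 5 h against 3 h, 0 to 39 with 1 replicate left out, 19 at 3 h without replicate 3 and 27 without the library.

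The TCHX difference turned sign in 26 of 98 values, and the cause was not tested beyond the library that was left out. PRELID1 (0.29) became −0.50 at 3 h, −0.64 at 3 h without replicate 3, −0.60 without the library and −0.77 to 0.62 with 1 replicate left out. CKAP4 (0.17) became −0.042 with TMM, −0.081 at 3 h, −0.34 with the other arm's 0 h libraries, −0.14 at 3 h without replicate 3, −0.66 without the library and −0.72 to 0.43 with 1 replicate left out. LRRFIP1 (−0.07) became 0.049 with genes stable at both times, 0.20 at 5 h, 0.54 at 5 h against 3 h and −0.57 to 0.15 with 1 replicate or the library left out. DDI2 (−1.04) became 1.68 at 5 h against 3 h. FABP5 (0.42) became −0.16 without replicate 3 and −0.18 to 0.70 with 1 replicate or the library left out. TMED10 (0.32) became −0.12 at 3 h, −0.15 at 3 h without replicate 3, −0.45 without the library and −0.58 to 0.67 with 1 replicate left out. SEPTIN11 (−0.10) became 0.042 with genes stable at both times, 1.32 at 5 h, 2.83 at 5 h against 3 h, 0.25 with the other arm's 0 h libraries and −1.70 to 0.21 with 1 replicate or the library left out.

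For the cycloheximide effect, 2 of the 7 differed, 0 with TMM, 0 with genes stable at both times, 5 with no filter, 0 at 3 h, 0 with the 0 h difference subtracted and 0 to 2 with 1 replicate left out. Over all genes 54 differed, and 32, 9, 137, 0 and 0 in those settings, 163 with DESeq2 and 1 to 54 with 1 replicate left out. DDI2 (0.76) became −0.21 at 3 h, −0.26 without the library and −0.21 without replicate 3, TMED10 (0.87) −0.13 without replicate 3, and SEPTIN11 (1.68) −0.18 at 3 h. With 1 replicate or the library left out, DDI2 ranged to 0.98 and TMED10 to 1.23.

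For mQ against pQ at 0 h, 4 of the 7 were called, 2 with the replicate block, 1 in the TCHX arm, 1 there without pQ replicate 3 (chosen after seeing the data) and 1 to 4 with 1 library left out. Over all genes 3071 were called, 810 in the TCHX arm, 2555 there without pQ replicate 3 and 1476 to 3319 with 1 library left out. PRELID1 (−0.06) became 0.031 without mQ replicate 3 and was −0.17 at the lowest with 1 library left out. DDI2 (0.06) became −0.029 in the TCHX arm, −0.21 there without pQ replicate 3, −0.089 without mQ replicate 2, −0.031 without pQ replicate 3 and 0.15 at the highest with 1 library left out. The replicate block changed the calls of FABP5 in the T arm and of 2 genes in mQ against pQ, and no other. Seed matches to either CTU2 antisense strand were in 5 of the 7 genes, and in 3 when an A opposite base 1 was also required. For the siCTU2#1 antisense strand, 6 of the 7 matched with bases 2 to 7, where 34.26% of all genes did. The same 6, LRRFIP1 among them, matched with any annotated coding transcript of the gene, where 12.93% of all genes did.

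CTU2 had 1 to 28 counts in siCTU2 libraries other than the one that goes against its label, so its changes over time are not read. FABP5 and DDI2 had as few as 30 and 31 counts.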
